A study of Homo sapiens with 8 samples.

Results

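The genes described here are the MHC class I heavy chains HLA-B, HLA-C, HLA-E and HLA-F, their light chain B2M, and the peptide supply and loading genes TAP1, TAP2, TAPBP and ERAP1, in 2 human neuroblastoma cell lines with or without an shRNA against the ion channel and kinase TRPM7. Every probe that the array table names for these genes was taken, which gave 16 probes of 9 genes out of 47322 probes and 31426 gene symbols. The genes were selected on earlier results of these same arrays, because the class I genes fell in SH-SY5Y but not in SH-EP2 knockdown cells. Their values under knockdown are therefore a description with no test. The comparison between the control cells of the 2 lines was tested, and it shares the SH-SY5Y control arrays with the knockdown comparison behind the selection. The other class I heavy chain genes of the table were not analysed here.

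MHC class I molecules carry peptides from inside the cell to its surface, where cytotoxic T cells read them and natural killer cells sense their loss. A heavy chain pairs with B2M in the endoplasmic reticulum. The TAP1 and TAP2 proteins form the transporter that brings in peptides cut by the proteasome, TAPBP (tapasin) holds the empty heavy chain at the transporter, and ERAP1 trims peptides to length. Neuroblastoma is a tumour of the neural crest lineage and is known for low class I levels, which interferon raises through factors such as IRF1 and NLRC5.

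The cells formed 4 groups, profiled on Illumina HumanHT-12 v4 bead arrays with 2 arrays in each. SH-EP2 is the epithelial-like (S-type) and SH-SY5Y the neuroblastic (N-type) subclone of the SK-N-SH line. Cells of each line were transduced with lentivirus for a scrambled shRNA (control) or for TRPM7 shRNA, so the controls also carry a lentiviral shRNA construct. A single TRPM7 shRNA sequence was used, so an effect of the sequence apart from its target cannot be told apart from loss of TRPM7. All values are normalized log2 intensities unless another scale is named, a probe was called detected where its detection p-value lay below 0.05, and no probe's level was set against that of another probe.

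Between 40.9% and 44.2% of all probes were detected on an array (19331 to 20904 probes), and the median raw signal was 105 to 120. TRPM7 itself was undetected on all 8 arrays, with detection p-values from 0.0753 to 0.201, so the arrays give no check of the knockdown itself. Of the 10 noradrenergic markers, 9 were lower in SH-EP2 than in SH-SY5Y control cells, and of the 10 mesenchymal markers 8 were higher and 2 (VIM and TWIST1) lower, by the limma test with Benjamini-Hochberg adjustment. Blood cells carry much class I, and 5 of 10 blood cell markers (CD3E, CD2, CD163 and NKG7 among them) were detected on no array, while CD14 was detected on all 8 and PTPRC and LYZ on 3 each. CD14, PTPRC and LYZ were higher in SH-EP2 than in SH-SY5Y control cells, and their part in the class I values was not tested.

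Of the 9 genes 7 lie on chromosome 6, where the MHC is, B2M lies on chromosome 15 and ERAP1 on chromosome 5. The stretches from 250 bases before to 50 bases after the transcription start are shown for 5 genes. The heavy chains, B2M and the transporter genes were together lower in SH-SY5Y than in SH-EP2 control cells. The sequences are those of RefSeq on GRCh38.p14, which has such a window for 8 of the 9 genes, HLA-E being the exception. Capitals mark matches, on either strand, to 4 motifs: GAANNGAAA (a short form of the interferon regulatory factor element), GGGATTCC (the class I NF-kB site), TGACG (the core of a cyclic AMP response element) and CCAAT.
HLA-B (chr6:31357130-31357429, minus strand): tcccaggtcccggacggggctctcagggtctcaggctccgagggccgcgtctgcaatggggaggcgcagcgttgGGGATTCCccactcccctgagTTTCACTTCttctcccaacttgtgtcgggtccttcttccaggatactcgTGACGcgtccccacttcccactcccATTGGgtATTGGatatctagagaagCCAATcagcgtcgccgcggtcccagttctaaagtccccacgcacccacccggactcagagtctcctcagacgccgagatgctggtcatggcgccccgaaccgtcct
HLA-C (chr6:31272043-31272342, minus strand): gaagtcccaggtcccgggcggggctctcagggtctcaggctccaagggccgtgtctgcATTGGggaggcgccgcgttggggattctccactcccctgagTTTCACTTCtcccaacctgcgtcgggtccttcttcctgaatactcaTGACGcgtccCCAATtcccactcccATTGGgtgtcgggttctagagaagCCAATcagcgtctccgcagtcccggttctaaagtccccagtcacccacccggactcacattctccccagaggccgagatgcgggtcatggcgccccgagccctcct
B2M (chr15:44711267-44711566, plus strand): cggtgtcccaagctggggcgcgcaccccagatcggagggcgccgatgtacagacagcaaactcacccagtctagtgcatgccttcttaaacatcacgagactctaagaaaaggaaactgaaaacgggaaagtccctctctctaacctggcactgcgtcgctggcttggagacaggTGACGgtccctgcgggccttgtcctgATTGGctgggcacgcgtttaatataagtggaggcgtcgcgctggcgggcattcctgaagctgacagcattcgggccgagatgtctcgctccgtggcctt
TAP1 (chr6:32853655-32853954, minus strand): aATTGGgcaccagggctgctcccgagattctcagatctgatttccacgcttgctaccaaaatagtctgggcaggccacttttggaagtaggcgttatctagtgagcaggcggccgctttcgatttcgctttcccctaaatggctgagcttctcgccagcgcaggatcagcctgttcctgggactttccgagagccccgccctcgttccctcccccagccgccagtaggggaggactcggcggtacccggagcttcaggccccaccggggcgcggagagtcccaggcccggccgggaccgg
TAP2 (chr6:32838690-32838989, minus strand): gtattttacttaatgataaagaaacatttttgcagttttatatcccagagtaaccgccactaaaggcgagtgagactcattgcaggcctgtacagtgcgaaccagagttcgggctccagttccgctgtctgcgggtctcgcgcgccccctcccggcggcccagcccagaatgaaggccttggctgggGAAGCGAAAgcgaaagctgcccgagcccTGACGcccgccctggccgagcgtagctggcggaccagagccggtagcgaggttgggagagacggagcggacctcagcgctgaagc

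GAANNGAAA was found in a window of 4 genes (HLA-B, HLA-C, TAP2 and ERAP1), and 7.66% of all 35116 promoter windows hold it. GGGATTCC was found only in that of HLA-B, against 1.12% of all windows. TGACG stood in HLA-B, HLA-C, B2M and TAP2, against 24.6% of all windows, and CCAAT in 6 genes, against 34.6%. No match overlapped a match to another motif. The TAP1 window shares its first 13 bases with the window of PSMB9, an inducible proteasome subunit read from the opposite strand. A match is a description of the letters and not of a bound site, and a window without one says nothing about the factor.

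All 9 genes had a probe detected on both arrays of SH-EP2 control cells, against 7 in SH-SY5Y control cells and 5 in SH-SY5Y TRPM7 shRNA cells. In SH-EP2 TRPM7 shRNA cells the number was 9. By probe, 14 of 16 were detected on both arrays in each SH-EP2 group, 8 in SH-SY5Y control cells and 6 in SH-SY5Y TRPM7 shRNA cells. The SD between the 2 arrays of a group ran from 0.0092 to 0.45 for the 6 probes detected on all 8 arrays. An array cannot tell fewer cells with a transcript from less of it in every cell.

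**Figure D1:**
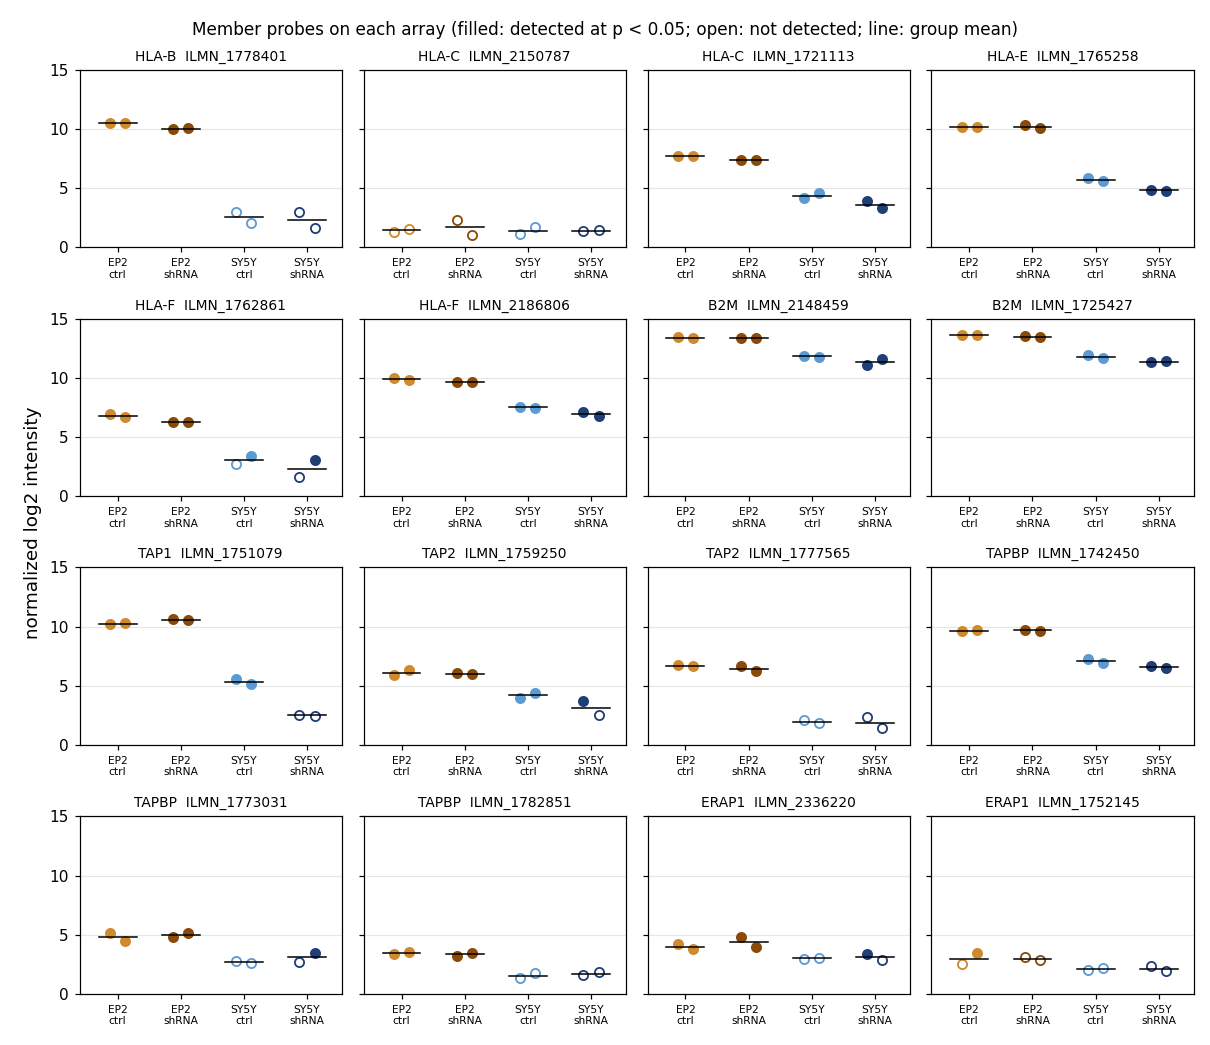
Normalized log2 intensity (vertical axis) of the 16 probes on each of the 8 arrays, by group, with filled points for detected and open points for undetected values and a line at each group mean. In 15 of 16 panels all 4 SH-EP2 arrays lie above all 4 SH-SY5Y arrays, the exception being an HLA-C probe that was detected nowhere.

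Which of the 2 lines carries the class I machinery was read from the control cells. SH-EP2 control cells had more of 8 of the 9 genes, all but ERAP1. Of the 16 probes 13 were higher in SH-EP2 at an adjusted p under 0.05 (limma), where 12.2% of all probes were, and 23.4% of those detected on at least 2 arrays. No probe was lower, whether or not p was adjusted. The median difference was 2.23 over the 16 probes and -0.02 over all probes, and it was 2.15 with the 5 probes that give only a lower bound set to that bound. For 15 of the 16 probes all 4 SH-EP2 arrays lay above all 4 SH-SY5Y arrays, which held for 13.6% of all probes. The calls held under each background correction, but the sizes did not, and without background correction the differences were 3.78 for HLA-B, 3.11 for TAP1, 2.94 for HLA-E, 1.27 for HLA-C and 0.48 for TAP2, while B2M stayed at 1.80.

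HLA-B, a classical heavy chain that presents peptides to T cells, read 10.47 and 10.51 on the SH-EP2 control arrays and 3.02 and 2.06 on those of SH-SY5Y. The SH-SY5Y values were not detected above background on any array. Set against the detection limit on the background-corrected scale, HLA-B was at least 161-fold higher in SH-EP2 control cells (adjusted p = 8.64e-14). The raw signals, which include the array background, differed 14.4-fold. Every bound given here is on the background-corrected scale. HLA-C, the other classical chain measured, read 7.69 and 7.74 in SH-EP2 and 4.16 and 4.56 in SH-SY5Y with its probe ILMN_1721113, a difference of 3.36 ± 0.24 (SE, adjusted p = 7.23e-10). Its other probe, ILMN_2150787, was detected on no array, so HLA-C rests on a single probe. Heavy chain genes are alike in sequence, and whether a probe also caught transcripts of another heavy chain was not tested.

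HLA-E, which shows leader peptides of other class I chains to natural killer cells, read 10.20 and 10.16 in SH-EP2 and 5.83 and 5.58 in SH-SY5Y control cells. The line difference was 4.48 ± 0.14 (SE), with an adjusted p of 1.8e-15. HLA-F, a non-classical chain, had 2 probes that gave the same direction. The brighter, ILMN_2186806, read 9.97 and 9.79 against 7.50 and 7.48, a difference of 2.38 ± 0.13 (SE, adjusted p = 5.75e-12), and the dimmer differed by 3.75 ± 0.40 (SE, adjusted p = 2.11e-07), with 1 of 2 SH-SY5Y control arrays detected.

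B2M, the light chain shared by the class I molecules, was detected on all 8 arrays by both of its probes. It read 13.62 and 13.64 in SH-EP2 and 11.94 and 11.65 in SH-SY5Y control cells with ILMN_1725427, a difference of 1.83 ± 0.08 (SE, adjusted p = 1.71e-13). The other probe differed by 1.58 ± 0.10 (SE, adjusted p = 4.56e-11). The B2M differences were thus 3.57-fold and 2.99-fold, below the bound for HLA-B.

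TAP1 read 10.18 and 10.31 in SH-EP2 and 5.55 and 5.15 in SH-SY5Y control cells, a difference of 4.90 ± 0.16 (SE, adjusted p = 3.09e-15). TAP2 differed by 1.91 ± 0.35 (SE, adjusted p = 0.000184) with ILMN_1759250. With ILMN_1777565, which was undetected in SH-SY5Y cells, it was at least 11.8-fold higher in SH-EP2, or 2.14-fold in raw signal. The 2 TAP2 probes thus gave 1 direction and different sizes.

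TAPBP was higher in SH-EP2 with all 3 of its probes, and the brightest, ILMN_1742450, read 9.65 and 9.70 against 7.31 and 6.96, a difference of 2.54 ± 0.13 (SE, adjusted p = 4.01e-12). The dimmer probes were undetected in SH-SY5Y control cells and gave lower bounds of 3.13-fold and 1.22-fold, or 1.30-fold and 1.31-fold in raw signal. ERAP1 did not pass the threshold with either probe, at 1.01 ± 0.45 (SE, adjusted p = 0.12, 95% interval 0.07 to 1.94) and 0.91 ± 0.46 (SE, adjusted p = 0.185). Both ERAP1 probes were dim, and neither was detected on an SH-SY5Y control array.

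**Figure D2:**
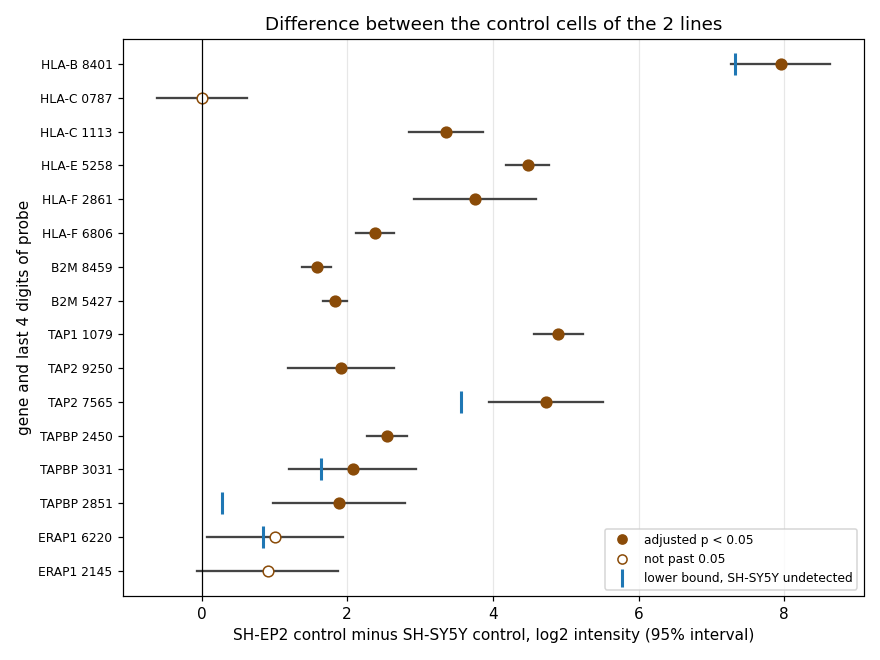
Difference in log2 intensity between SH-EP2 and SH-SY5Y control cells (horizontal axis) for each probe (vertical axis), with 95% intervals, filled where the adjusted p lay below 0.05, and a vertical tick at the lower bound where SH-SY5Y was undetected. The largest difference is that of HLA-B at 7.95, and 3 of 16 probes, 1 of HLA-C and 2 of ERAP1, did not pass.

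Knockdown in SH-SY5Y cells was the comparison behind the selection, and the values are given to show its size. TAP1 stood farthest below control, while ERAP1 showed no difference beyond the spread of its arrays. The median over the 16 probes was -0.46, against 0.00 over all probes. In 8 of the 16 both shRNA arrays lay below both control arrays, as they did for 19.2% of all probes. This count follows from the selection.

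The TAP1 values were 5.55 and 5.15 on the SH-SY5Y control arrays and 2.52 and 2.50 on the TRPM7 shRNA arrays, where the probe was no longer detected. Against the detection limit this was at least 5.0-fold lower. Its raw signals were 162 and 132 in control and 115 and 115 in shRNA cells, so TAP1 was near the array background in both groups. TAP2 read 4.02 and 4.38 in control and 3.70 and 2.52 in shRNA cells with ILMN_1759250, a difference of -1.09 ± 0.35 (SE), and its other probe was undetected in both groups. The TAP2 value rested on single arrays, at -1.68 without SH-SY5Y TRPM7 shRNA replicate 1 and -0.49 without replicate 2.

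HLA-E read 5.83 and 5.58 in control and 4.89 and 4.74 in shRNA cells, a difference of -0.89 ± 0.14 (SE) with no overlap between the groups. HLA-C read 4.16 and 4.56 against 3.92 and 3.29, a difference of -0.75 ± 0.24 (SE), and -0.43 without SH-SY5Y TRPM7 shRNA replicate 2. The second shRNA array of HLA-C was the lowest of the 4. HLA-F read 7.50 and 7.48 against 7.14 and 6.81, a difference of -0.52 ± 0.13 (SE), and its dimmer probe, at -0.74 ± 0.40 (SE), overlapped between the groups. HLA-B was undetected on all 4 SH-SY5Y arrays, so no change of HLA-B could be read in this line.

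B2M read 11.94 and 11.65 in control and 11.32 and 11.39 in shRNA cells with ILMN_1725427, a difference of -0.44 ± 0.08 (SE), and differed by -0.47 ± 0.10 (SE) with its other probe. TAPBP read 7.31 and 6.96 against 6.65 and 6.51 with ILMN_1742450, a difference of -0.56 ± 0.13 (SE). Its 2 dimmer probes were above control, at 0.36 ± 0.42 and 0.16 ± 0.43 (SE), with overlapping arrays and no array of the control group detected. The ERAP1 probes differed by 0.13 ± 0.45 and 0.04 ± 0.46 (SE).

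**Figure D3:**
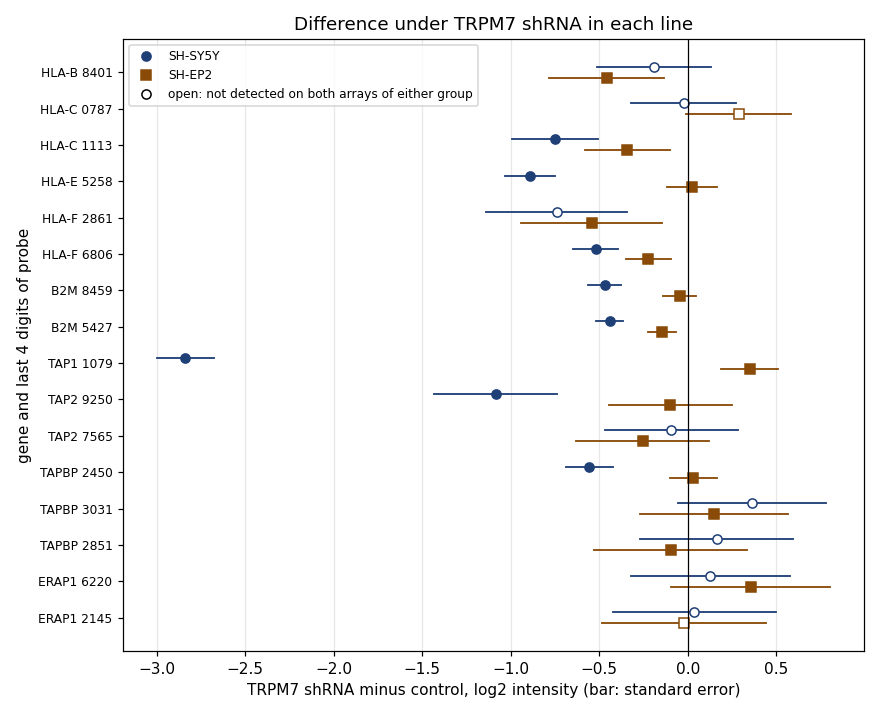
Difference in log2 intensity between TRPM7 shRNA and control cells (horizontal axis) for each probe (vertical axis) in SH-SY5Y (circles) and SH-EP2 (squares), with standard errors, and open symbols where neither group was detected on both arrays. TAP1 lies at -2.84 in SH-SY5Y and at 0.35 in SH-EP2, and the SH-SY5Y value of TAP1 compares with an undetected group.

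The size of these differences depended on how the array background was taken off. Without background correction they were -0.45 for TAP1, -0.23 for HLA-E, -0.14 for TAP2 and -0.10 for HLA-C, while bright B2M stayed at -0.43. Of the 8 probes with non-overlapping arrays, only that of TAP1 had both raw shRNA signals below both raw control signals, and the ratio of mean raw signals ran from 0.779 to 1.01. The median raw signals of the SH-SY5Y arrays were 112 and 105 in control and 117 and 117 in shRNA cells.

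**Figure D4:**
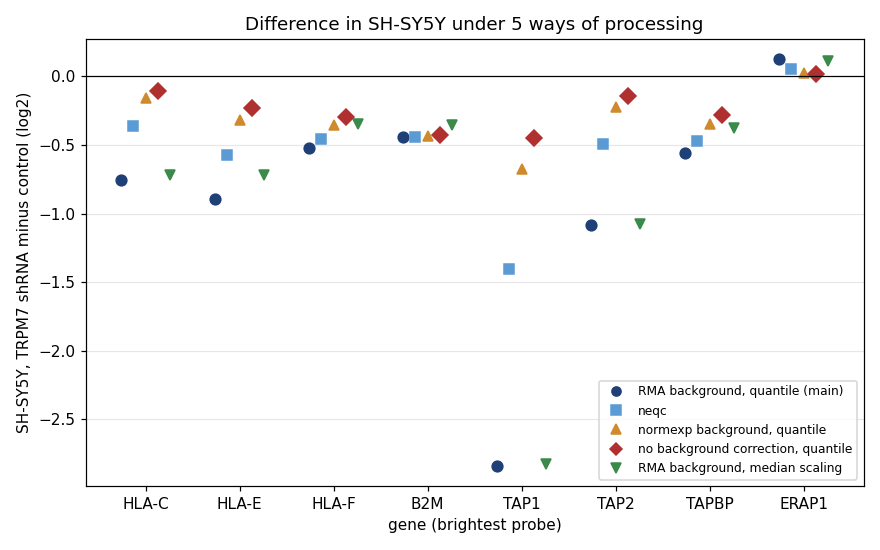
Difference in log2 intensity in SH-SY5Y cells, TRPM7 shRNA minus control (vertical axis), for the brightest probe of 8 genes (horizontal axis) under 5 ways of processing, one symbol each. TAP1 ranges from -2.84 in the main processing to -0.45 without background correction, and B2M lies between -0.44 and -0.35 in all 5.

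In SH-EP2 cells 14 of the 16 probes could be read in both groups, and the differences under TRPM7 shRNA ran from -0.54 for an HLA-F probe to 0.35 for TAP1 and ERAP1. The median over the 16 probes was -0.07. The selection used these values too, so they carry no test. In 7 probes both shRNA arrays lay below both control arrays, as they did for 20.8% of all probes, and the probe of TAP1 lay above.

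HLA-B read 10.47 and 10.51 in control and 9.99 and 10.07 in shRNA cells, a difference of -0.46 ± 0.32 (SE, 95% interval -1.14 to 0.22). HLA-C read 7.69 and 7.74 against 7.35 and 7.40, a difference of -0.34 ± 0.24 (SE), and HLA-F lay at -0.22 ± 0.13 and -0.54 ± 0.40 (SE) with its 2 probes. For these 3 chains the control and shRNA arrays did not overlap. HLA-E, at 0.02 ± 0.14 (SE), and TAPBP, at 0.03 ± 0.13 (SE, brightest probe), overlapped between the groups.

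B2M read 13.62 and 13.64 in control and 13.49 and 13.47 in shRNA cells, a difference of -0.15 ± 0.08 (SE). TAP1 read 10.18 and 10.31 in control and 10.63 and 10.56 in shRNA cells, a difference of 0.35 ± 0.16 (SE), the opposite direction to that in SH-SY5Y. TAP2 lay at -0.10 ± 0.35 and -0.26 ± 0.37 (SE), and ERAP1 at 0.35 ± 0.45 and -0.02 ± 0.46 (SE). The statement behind the selection was that class I genes fell in SH-SY5Y only. Judged by arrays that did not overlap, it describes TAP1, HLA-E and the brightest probes of TAP2 and TAPBP. Both TAP2 probes also lay below control in SH-EP2, and the arrays of the dimmer one did not overlap there. HLA-C, HLA-F and B2M lay below control in both lines, each by less in SH-EP2, and HLA-B could be read only in SH-EP2. For B2M the 2 probes gave -0.15 and -0.05 in SH-EP2 against -0.44 and -0.47 in SH-SY5Y.

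The rest of the pathway was counted in 8 lists of 84 genes, 83 of which had a probe, with the brightest probe standing for each gene. These genes were tested in every comparison. In SH-SY5Y knockdown cells 5 of the 83 genes were lower (PSMB8, IFITM3, IFITM2, IFI44 and IFNGR2) and 1 was higher (IFI44L), and 2.57% of all gene symbols changed in either direction. In SH-EP2 knockdown cells 5 were higher (IFI44L, IFI44, IRF1, PSME2 and PSMB7) and 0 lower, against 3.67% of all symbols. At an unadjusted p under 0.05, 4 were higher and 14 lower in SH-SY5Y, and 8 higher and 8 lower in SH-EP2. The share of all symbols at that level was not taken. The knockdown effect differed between the lines for 4 genes (PSMB8, IFI44, IFITM3 and IFITM2), each lower in SH-SY5Y relative to SH-EP2, against 1.78% of all symbols. The median over the 83 genes was -0.12 in SH-SY5Y and 0.04 in SH-EP2, against 0.00 and 0.01 over all symbols. Without the intensity trend in the variance, 1 gene passed in SH-SY5Y and none in SH-EP2. Scaling each array to its median in place of quantile normalization turned the calls over all probes in SH-SY5Y cells from 382 higher and 617 lower to 553 higher and 284 lower.

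Among 6 immunoproteasome genes, the inducible subunits and activator that shape peptides for class I, PSMB8 fell in SH-SY5Y. PSMB8 lies between TAP1 and TAP2 on chromosome 6. It read 5.40 and 5.99 in control and 3.06 and 3.0 in shRNA cells with ILMN_2390299, a difference of -2.67 ± 0.18 (SE, adjusted p = 1.52e-08), which was -1.43 with neqc and -0.49 without background correction (adjusted p = 1.07e-06 and 0.000636). Another 2 of its 4 probes were lower, one by 1.16 (adjusted p = 0.0383) and one at least 4.04-fold (adjusted p = 1.45e-07), and the last was undetected in SH-SY5Y cells. In SH-EP2 cells PSMB8 differed by 0.10 ± 0.18 (SE, adjusted p = 0.907), and the effects of the 2 lines differed by -2.76 ± 0.25 (SE, adjusted p = 1.59e-06).

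PSMB9, which faces TAP1 across a shared promoter stretch, was undetected in SH-SY5Y cells with its brighter probe, at 1.65 and 2.30 in control and 2.70 and 2.04 in shRNA cells. In SH-EP2 it read 8.90 and 8.73 in control and 9.01 and 8.97 in shRNA cells. The SH-EP2 control cells were at least 50.5-fold above SH-SY5Y control cells (adjusted p = 5.16e-14), or 5.63-fold in raw signal. PSMB10, the remaining inducible catalytic subunit, differed by 0.14 ± 0.08 (SE, adjusted p = 0.568) under knockdown in SH-SY5Y and by 0.07 ± 0.08 (SE, adjusted p = 0.806) in SH-EP2. PSME2, a subunit of the PA28 proteasome activator, rose by 0.39 ± 0.08 (SE, adjusted p = 0.00488) in SH-EP2. Of the 3 constitutive catalytic subunits, PSMB7 rose in SH-EP2 by 0.26 ± 0.07 (SE, adjusted p = 0.042) and 0 passed in SH-SY5Y, adjusted or not. Leaving out any SH-EP2 array took the call from PSME2 (adjusted p up to 0.0812) and from PSMB7 (adjusted p up to 0.447).

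None of 8 measured chaperone, peptide trimming and protein translocation genes of the endoplasmic reticulum passed the threshold (limma) under knockdown in either line. At an unadjusted p under 0.05 there were 1 higher and 2 lower in SH-SY5Y and 4 lower in SH-EP2. CALR (calreticulin) differed by -0.15 ± 0.09 (SE, adjusted p = 0.605) in SH-SY5Y, and CANX (calnexin) by -0.39 ± 0.15 (SE, adjusted p = 0.285). The probe of PDIA3, which protects the heavy chain's disulphide bond, was undetected on all arrays. Between the control cells 6 of the 8 were higher in SH-EP2, among them ERAP2, the partner trimming enzyme of ERAP1, at least 108-fold (adjusted p = 2.89e-15), or 9.94-fold in raw signal.

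Among 15 transcription factors that act at class I promoters, IRF1 rose in SH-EP2 knockdown cells, from 9.94 and 9.70 to 10.28 and 10.35 (0.50 ± 0.13, SE, adjusted p = 0.045). Leaving out any SH-EP2 array took this call away (adjusted p up to 0.426). In SH-SY5Y it differed by -0.09 ± 0.13 (SE, adjusted p = 0.876), and the effects of the lines differed by -0.59 (adjusted p = 0.17). IRF1 was 3.60 higher in SH-EP2 than in SH-SY5Y control cells (adjusted p = 1.66e-14), as were 3 others, while CREB1 (-0.997, adjusted p = 2.41e-09) and NFYA (-0.73, adjusted p = 0.0309) were lower. NLRC5, the class I transactivator, was undetected on all 8 arrays.

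Of 11 interferon receptor and signalling genes, IFNGR2, a chain of the interferon gamma receptor, fell in SH-SY5Y by 0.33 on the log2 scale (SE 0.08, adjusted p = 0.0343). Of the 8 fits that left out 1 array, 2 kept the IFNGR2 call, those without an SH-EP2 control replicate, and the adjusted p reached 0.174. Between the control cells 9 of the 11 were higher in SH-EP2, IFNGR2 by 0.69 ± 0.08 (SE, adjusted p = 6.42e-07).

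Of the 20 interferon-stimulated genes 3 fell and 1 rose in SH-SY5Y, and 2 rose in SH-EP2. IFITM3 fell in SH-SY5Y from 6.48 and 6.64 to 5.70 and 5.35 (-1.03 ± 0.11, SE, adjusted p = 9.03e-06), and IFITM2 from 9.74 and 9.85 to 9.08 and 8.87 (-0.82 ± 0.08, SE, adjusted p = 4.29e-06). Both encode membrane proteins that restrict virus entry. IFI44 moved in opposite directions, lower by 0.61 in SH-SY5Y (adjusted p = 0.0425) and higher by 0.91 in SH-EP2 (adjusted p = 0.00128), and IFI44L rose in both lines, at least 1.77-fold (adjusted p = 0.000332) in SH-SY5Y, where its control was undetected, and by 1.19 (adjusted p = 0.00557) in SH-EP2. Without background correction neither IFI44 (adjusted p = 0.317) nor IFI44L (adjusted p = 0.2) passed in SH-SY5Y. The IFI44 effects differed between the lines by -1.51 ± 0.22 (SE, adjusted p = 0.000418). The IFI44 call in SH-SY5Y held in 1 of 8 fits that left out an array, the one without SH-SY5Y control replicate 2 (adjusted p up to 0.184). That of IFI44L in SH-EP2 was lost without SH-EP2 control replicate 1 or either SH-EP2 TRPM7 shRNA array (adjusted p up to 0.145). The difference between the lines for IFITM3, -0.82 (adjusted p = 0.00732), was lost without SH-EP2 control replicate 1 or SH-EP2 TRPM7 shRNA replicate 1 (adjusted p up to 0.0821), and was -0.29 with normexp (adjusted p = 0.321) and -0.17 without background correction (adjusted p = 0.662).

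**Figure D5:**
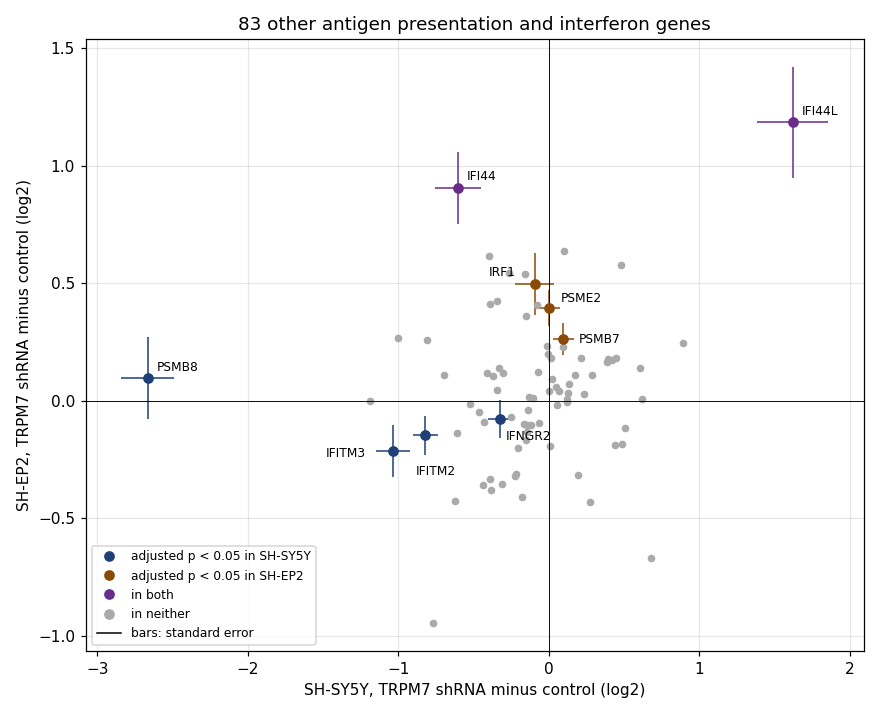
Difference in log2 intensity under TRPM7 shRNA in SH-SY5Y (horizontal axis) and in SH-EP2 (vertical axis) for the 83 other genes, coloured by the line in which the adjusted p lay below 0.05, with standard errors on the named genes. PSMB8 lies at -2.67 in SH-SY5Y and 0.10 in SH-EP2, and IFI44 has opposite signs in the 2 lines.

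None of 10 MHC class II genes and none of 10 class I-like genes and NKG2D ligands passed the threshold (limma) under knockdown in either line. At an unadjusted p under 0.05 there were 0 class II genes, and of the class I-like genes 1 higher and 1 lower in SH-SY5Y and 1 lower in SH-EP2. Between the control cells 57 of the 83 genes differed, 55 higher in SH-EP2 and 2 lower, against 30.1% of all symbols in either direction. The interferon-stimulated list had 19 of 20 higher, led by GBP1 at least 88.8-fold (adjusted p = 2.74e-16) and IFITM3 by 6.75 ± 0.11 (SE, adjusted p = 1.02e-19). The class I-like list had 5 of 10 higher, with the stress ligands MICB at least 22.4-fold (adjusted p = 6.89e-12) and ULBP2 at least 18.2-fold (adjusted p = 3.22e-11). In the class II list 4 of 10 were higher, with HLA-DPA1 at least 16.9-fold (adjusted p = 7.94e-12).

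Cell identity markers also moved with knockdown. In SH-SY5Y, ISL1 (-0.45, adjusted p = 0.0144), DBH (-1.20, adjusted p = 0.000637) and VIM (-0.30, adjusted p = 0.0176) fell and NT5E rose (1.17, adjusted p = 0.00376). In SH-EP2, GATA2 (-0.78, adjusted p = 0.0171), CHGA (-0.63, adjusted p = 0.0344), TWIST1 (-0.37, adjusted p = 0.0117), COL1A1 (-0.56, adjusted p = 0.00329) and COL1A2 (-1.56, adjusted p = 0.0015) fell. CHGB (1.01, adjusted p = 0.011) and CD44 (0.77, adjusted p = 0.0207) rose there. In SH-SY5Y the summed linear intensity of the 10 noradrenergic markers was 25000 to 26330 in control and 18660 to 19940 in shRNA cells, and that of the 10 mesenchymal markers was 15990 to 17370 against 14520 to 14560. The mesenchymal sum came mostly from VIM (13.75 and 13.60 in control, 13.35 and 13.40 in shRNA cells) and TWIST1 (11.66 and 11.65 against 11.87 and 11.72). Only 6 of its markers were detected on both arrays of each SH-SY5Y group, so it says little of the others. The summed blood cell markers were 61.9 to 65.7 against 62.7 to 80.6, and in SH-EP2 they were 313 to 343 in control and 115 to 121 in shRNA cells, where CD14 fell by 2.03 on the log2 scale (adjusted p = 3.22e-05). The part of these markers in the class I values was not tested.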

How the data were processed

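Total RNA of the 8 samples was labelled with biotin and hybridised, and the paper names a service company, ServiceXS, for the array profiling. The deposited table holds bead intensity and a detection p-value per probe and array. It was written by GenomeStudio (version 2011.1 per the submitters' processing notes) with no normalization. The intensities were background-corrected by the RMA model, quantile-normalized over the 8 arrays and put on the log2 scale, with no filter. The 4 group means were fitted with limma 3.58.1 in R 4.3.3 (lmFit, eBayes with an intensity trend) and two-sided p-values received Benjamini-Hochberg adjustment across the 47322 probes of the table. Where a probe was undetected on every array of a group, the fold is a bound against the mean of each array's lowest detected value or the probe's own, whichever was higher. The precision is limited by 2 arrays a group, and the labels do not say that these came from separate cultures, so p-values measure the spread between these samples, which may be technical.

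The class I genes and the gene lists were chosen with earlier results of these data known. Named were every probe of the 9 genes, TRPM7, up to 4 genes a list and comparison past the threshold with the largest change and detected on both arrays of the brighter group, and PSMB8, PSMB9, PSMB10, NLRC5, IRF1, CALR, CANX and PDIA3 whatever their values. Some genes of the lists are not reported here by name. Alternatives changed the background correction (neqc, normexp with offset 50, none), the scaling, the detection filter, the trend, the samples fitted, the replicate block, the probe of a gene and the arrays used. Promoter motifs were searched with Python 3.11.15. The fit was tested on simulated data.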

Additional observations from a re-analysis of the deposited data

Results flagged for a closer look

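Outside the selected class I genes, 4 genes had a knockdown effect that differed between the lines by the interaction test, given as the SH-SY5Y effect minus the SH-EP2 effect on the log2 scale. These were PSMB8 at -2.76, IFI44 at -1.51, IFITM2 at -0.67 and IFITM3 at -0.82, with adjusted p-values of 1.59e-06, 0.000418, 0.00305 and 0.00732 (limma). Without background correction they were -0.57, -0.89, -0.55 and -0.17 in that order, and IFITM3 no longer passed (adjusted p = 0.662, and 0.321 with normexp). Each rests on 2 arrays a group, and PSMB8 was at the detection limit in SH-SY5Y TRPM7 shRNA cells, with 1 of 2 arrays detected.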

How the results depend on the processing

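The count of 8 class I genes higher in SH-EP2 control cells was the same under all 16 settings, while the size of the differences moved with the background correction, from 7.95 to 3.78 for HLA-B and from 4.90 to 3.11 for TAP1 without it. The median difference over the class I probes in SH-SY5Y knockdown cells moved from -0.46 to -0.18 with normexp and to -0.11 without background correction, and ran from -0.51 to -0.37 when single arrays were left out. For the other pathway genes, the 6 past the threshold in SH-SY5Y became 1 without the intensity trend and 3 with each line fitted alone, and 4 to 8 when single arrays were left out. The 5 in SH-EP2 became 0 without the trend, 13 with the line alone, 3 with median scaling and 8 without background correction, and 1 to 5 when single arrays were left out. The 4 that differed between the lines became 0 without the trend, and 3 to 5 when single arrays were left out. Of the 8 fits that left out an array, IFI44 passed in 1 and IFNGR2 in 2 in SH-SY5Y, and IRF1, PSMB7 and PSME2 in 4 each in SH-EP2. In SH-SY5Y, IFI44L and IFI44 no longer passed without background correction, with normexp or with the line fitted alone. IFI44 was also lost with neqc, median scaling and the replicate block. IFNGR2 was lost with median scaling, the line fitted alone and the replicate block. The cause was not tested. Directions were followed for the brightest class I probes between the lines, and for the other pathway calls under knockdown and in the interaction. None of those changed direction in any of these fits. The marker calls and the other pathway calls between the lines were not followed gene by gene. Among the untested knockdown values, which overlap between arrays, HLA-B and ERAP1 in SH-SY5Y and HLA-E, TAP2, TAPBP and ERAP1 in SH-EP2 had both signs across the fits. The SH-SY5Y signals of TAP1, TAP2, HLA-C and PSMB8 lay near background, which limits the size that can be read for them.

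Replicate numbers did not pair the samples. The differences between replicates correlated at -0.11 (SH-SY5Y) and -0.0045 (SH-EP2) over 14577 probes. With the replicate number as a block, 3 of the other pathway genes passed in SH-EP2 and 5 in SH-SY5Y. A crossed block, chosen after seeing the data, gave 10 in SH-SY5Y.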

Other observations

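Genes outside the lists whose 4 group means were most like those of the class I chains were found among 14206 probes detected on all 8 arrays. The measure was the root mean square distance, in log2 units, between centred group means and those of the mean over the brightest probes of HLA-B, HLA-C, HLA-E, HLA-F and B2M. That mean was 10.38 in SH-EP2 control, 10.15 in SH-EP2 TRPM7 shRNA, 6.38 in SH-SY5Y control and 5.82 in SH-SY5Y TRPM7 shRNA cells. The 5 nearest genes were NAV1 (0.144), HNMT (0.147), FILIP1L (0.150 and 0.152 with its 2 probes), SEPT4 (0.163) and KRT80 (0.169). NAV1, a microtubule-binding protein of migrating neurons, had group means of 8.34, 7.96, 4.43 and 4.03 in the same order of groups, and HNMT, a histamine-degrading enzyme, had 9.58, 9.31, 5.22 and 4.76. The likeness rests on 4 group means and carries the difference between the lines above all.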
